A study of Mus musculus with 8 samples.

Results

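Genes that normally act in germ cells were followed through mouse embryonic stem cells (ESC), blastoids and EPSC, the expanded potential stem cells made from ESC. The set was a list of 41 symbols with roles in germ cell fate, meiosis, piRNA silencing or sperm formation, and all 41 were present in the deposited table of 24888 genes. The list was chosen by symbol, with earlier results of these data known. All 8 libraries came from the E14 ESC line, with 1 library per group and no replicate. ESC were grown in serum with LIF, CHIR99021 and PD0325901. EPSC came from those ESC through 5 passages in knockout serum replacement with LIF, CHIR99021 and PD0325901 plus JNK Inhibitor VIII, SB203580, A-419259 and XAV939. Each state was also given T0901317 (T09), an agonist of the liver X receptors, for 3 days. Day 2 blastoids were EPSC aggregates harvested 48 hours after transfection with a non-targeting siRNA (siNT) or one against the receptor gene Nr1h2 (siNr1h2). Day 5 blastoids, aggregates that model the blastocyst, were labelled Type I and Type III, were described as derived from T09-treated EPSC, and were picked by hand. The EPSC were 1 derivation, so the state, the medium and that derivation cannot be told apart.

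In the embryo, primordial germ cells switch on DAZL and DDX4 when they reach the gonad. Retinoic acid then induces STRA8, and the chromosomes acquire a meiotic axis, pair through the synaptonemal complex and recombine. PIWI proteins bound to piRNAs silence transposons in the male germline, in granules built by Tudor domain proteins. In ESC and other cells many such genes are held silent by DNA methylation and by complexes that contain MGA, MAX and E2F6. These statements are background from other work and were not measured here.

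Levels are given in CPM, the reads of a gene relative to its library's total count scaled by edgeR's TMM factor. Total counts ran from 24666260 to 40781415 per library, and 0 counts allow a level of up to 0.0741 to 0.114 CPM (3 counts). The summed level of the 41 genes was 618 CPM in ESC and 554 CPM in T09-treated ESC. It was 927 CPM in EPSC and 885 CPM in T09-treated EPSC. The sum was 612 CPM in siNT and 645 CPM in siNr1h2 day 2 blastoids, 483 CPM in Type III and 327 CPM in Type I blastoids. EPSC therefore had the highest sums and Type I blastoids the lowest. A few genes carry much of these sums, so they do not describe the whole set. Dazl, Ddx4 and Stra8, the 3 genes of germ cell fate and meiotic entry, held 327 CPM in EPSC and 42.0 CPM in ESC. Rpl10l went the other way, at 97.0 CPM in EPSC and 215 CPM in ESC. By gene, 15 members were highest in an EPSC library, 15 in a day 2 blastoid, 9 in a day 5 blastoid and 2 in an ESC library. The lowest level lay in a day 5 blastoid for 19 members and in an ESC library for 16. At least 20 counts were reached in every library by 27 members, and 8 stayed under 100 counts in all libraries.

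**Figure D1:**
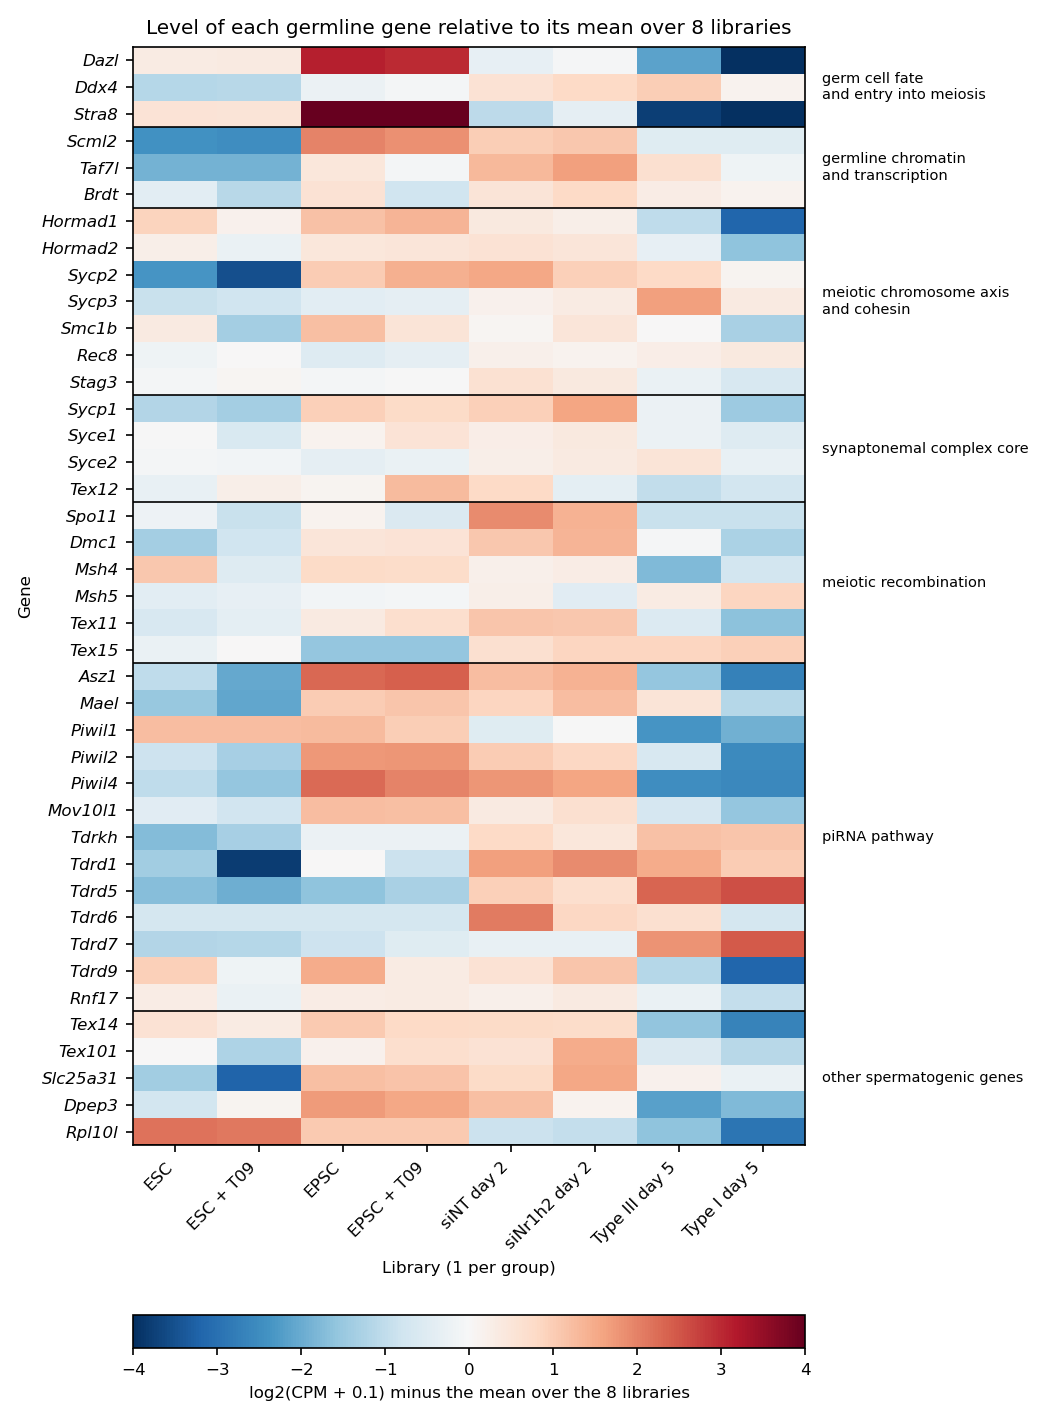
Colour map of the 41 genes (rows, ordered by role) in the 8 libraries (columns), as log2 of CPM plus 0.1 minus the gene's own mean over the libraries. Colours stop at 4 log2 units either way. Stra8, Dazl and Asz1 are high in both EPSC columns and low in both day 5 columns, while Tdrd5, Tdrd7 and Tex15 run the other way.

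Per length of transcript the members were far from equal. In ESC the highest level per kilobase of exon (CPM per kb) was that of Rpl10l at 210, followed by Syce2 at 27.4, Rnf17 at 15.0 and Hormad1 at 12.7. In EPSC the order was Rpl10l at 94.8, Stra8 at 78.3, Dazl at 44.9 and Syce2 at 22.9 CPM per kb. In Type III blastoids it was Syce2 at 42.0, Sycp3 at 34.5, Rpl10l at 15.0 and Ddx4 at 11.5 CPM per kb. Syce2, a central element protein of the synaptonemal complex, was among the 4 highest members in each of these 3 libraries. Rpl10l is a copy of the ribosomal protein gene Rpl10 that is known for its use in male meiosis. How reads were divided between the pair is not stated, so Rpl10l values are uncertain. Rpl10 itself lay between 1212 and 2268 CPM.

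The first comparison asked how the germline genes differ between EPSC and ESC. The edgeR quasi-likelihood model with terms for state and for T09, run on the 4 cultures (2 libraries a state, 1 residual degree of freedom), tested 39 of the 41 members. Spo11 and Tdrd6 did not pass its filter on low counts, and 1 of the 39, Sycp2, passed it through the EPSC libraries only, so that its call follows in part from the filter. After Benjamini-Hochberg adjustment over all 14477 genes at a threshold of 0.05, 21 members were higher in EPSC and 2 were lower. Without Sycp2 the counts were 20 and 2 of 38. Among all genes tested 14.3% were higher and 14.5% lower. The counts by role below are to be read against these shares, and several roles hold few genes. The members' median difference was 0.97 on the log2 scale, against 0.00 for all genes. The list was drawn up with earlier results of these data known, so these shares and medians describe it and are no independent test. Because the 4 libraries are 4 conditions, the spread behind these tests is the departure from additive state and T09 effects.

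The genes of germ cell fate and meiotic entry rose as a group, 3 of 3. Stra8, the retinoic acid-induced gatekeeper of meiosis, was at 9.13 CPM in ESC, 9.01 CPM in T09-treated ESC, 141 CPM in EPSC and 109 CPM in T09-treated EPSC. Its state difference was 3.76 ± 0.141 on the log2 scale (SE) with an adjusted p of 7.8e-07 in the edgeR quasi-likelihood test. Both EPSC libraries stood far above both ESC libraries. Dazl, an RNA-binding protein that licenses germ cells for gametogenesis, was at 25.0 and 25.3 CPM in untreated and treated ESC and at 171 and 159 CPM in untreated and treated EPSC. Its log2 difference was 2.70 ± 0.112 (edgeR adjusted p = 9.16e-07), so its values within a state lay much closer together than the states did. Ddx4, the germ cell RNA helicase also called VASA, rose less, from 7.87 and 8.01 CPM in ESC to 14.8 and 16.6 CPM in EPSC. That difference was 0.97 ± 0.175 on the log2 scale (edgeR adjusted p = 0.00299).

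Of the germline chromatin and transcription genes, 2 of 3 rose. Scml2, a Polycomb protein of the male germline, was at 1.69 and 1.62 CPM in untreated and treated ESC and at 37.7 and 34.4 CPM in EPSC. With 4.43 ± 0.179 on the log2 scale (edgeR adjusted p = 7.82e-07) it was the second largest member difference after Sycp2. Taf7l, a germ cell form of a TFIID subunit, went from 0.964 and 0.977 CPM to 5.34 and 3.63 CPM, a log2 difference of 2.17 ± 0.323 (edgeR adjusted p = 0.00106). Brdt, the testis bromodomain protein, did not pass and its levels overlapped: 1.15 and 0.67 CPM in ESC, 2.38 and 0.865 CPM in EPSC.

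**Figure D2:**
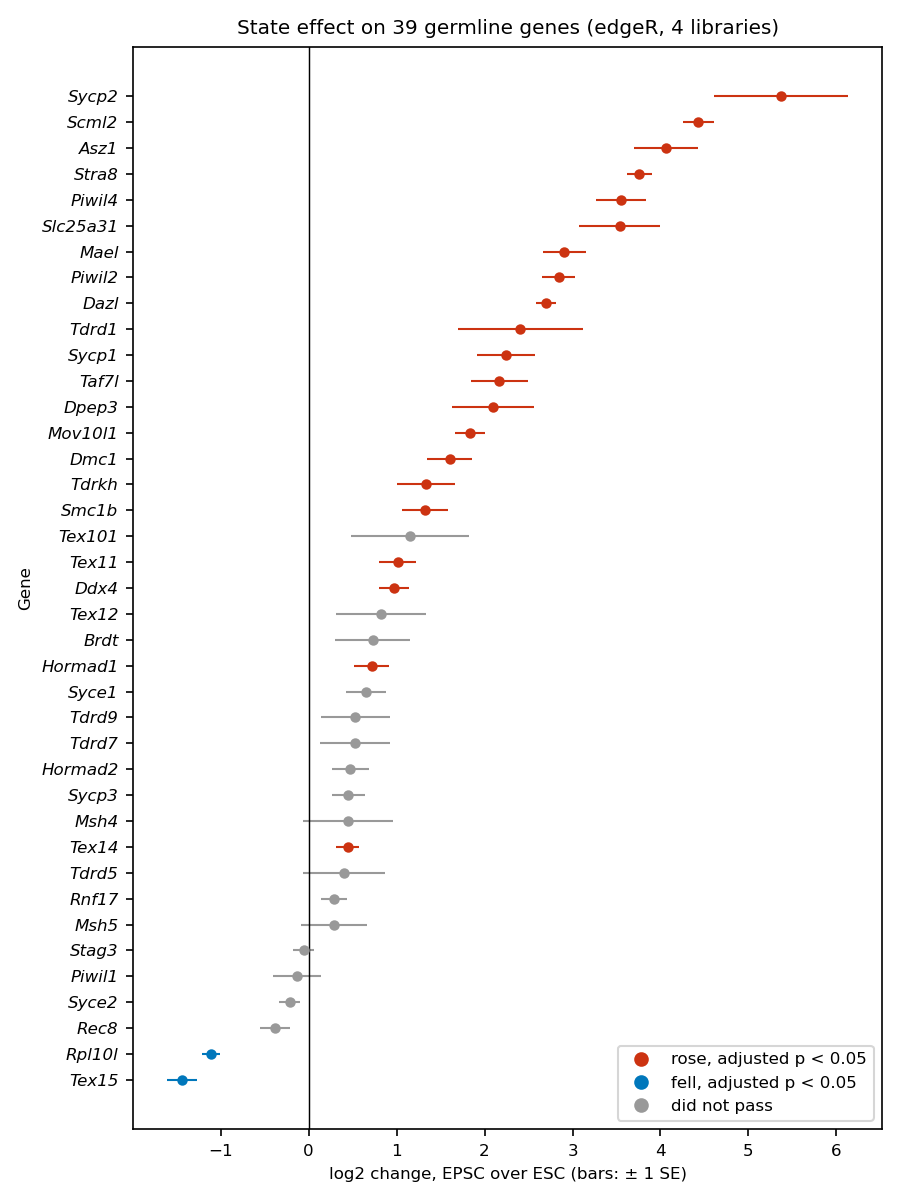
Log2 difference of EPSC over ESC for the 39 members tested, with bars of 1 SE from the edgeR fit, ordered by size. Red and blue points passed the adjusted threshold of 0.05 and grey points did not. The 21 red members lie between Tex14 (0.44) and Sycp2 (5.37), and the blue ones, Rpl10l and Tex15, lie below 0.

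The piRNA pathway held the most members that rose, 7 of the 12 tested, and none of the 12 fell. Piwil2, a PIWI protein needed for piRNA production, was at 4.91 and 3.49 CPM in untreated and treated ESC and at 29.6 and 30.5 CPM in EPSC (log2 difference 2.84 ± 0.190, edgeR adjusted p = 1.11e-05). Piwil4, the nuclear PIWI protein that directs methylation of transposons, was at 0.844 and 0.558 CPM in ESC and 9.01 and 7.44 CPM in EPSC (3.55 ± 0.283, edgeR adjusted p = 2.71e-05). Piwil1, the PIWI protein of later spermatogenesis, did not follow: 3.32 CPM in both ESC libraries, 3.35 CPM in EPSC and 2.77 CPM in T09-treated EPSC. Among partners of PIWI proteins, Asz1, a germ granule protein at the mitochondrial surface, went from 0.663 and 0.279 CPM to 7.54 and 7.95 CPM (4.06 ± 0.365, edgeR adjusted p = 5.31e-05). Mael, which acts in transposon silencing, went from 2.35 and 1.56 CPM to 14.2 and 15.0 CPM (2.91 ± 0.241, edgeR adjusted p = 3.34e-05). The helicase gene Mov10l1, which feeds precursors into the pathway, went from 7.72 and 6.14 CPM to 25.0 and 24.6 CPM. For these 3 genes the lower EPSC library was above the higher ESC library by more than the gap within either state.

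The Tudor domain genes, which encode the scaffold of piRNA granules, split. Tdrkh (log2 1.34 ± 0.328) and Tdrd1 (2.41 ± 0.710) rose, with edgeR adjusted p of 0.0139 and 0.031. Tdrd5, Tdrd7 and Tdrd9 had log2 differences of 0.41, 0.53 and 0.53 and did not pass. Rnf17, another Tudor domain gene, was among the most abundant members in CPM, at 93.8 and 63.0 CPM in ESC and 93.0 and 96.3 CPM in EPSC, and did not pass either. Tdrd6 had 0 counts in all 4 cultures. Tdrd1 rested on few counts: 19 in ESC, 1 in T09-treated ESC and 35 in T09-treated EPSC. Without T09-treated ESC its log2 difference was 1.13 with an adjusted p of 0.27 in edgeR. It was 1.53 without EPSC and 2.48 without T09-treated EPSC (edgeR adjusted p of 0.332 and 0.0961). Tdrkh missed the threshold without ESC (1.13), without EPSC (1.34) and without T09-treated EPSC (1.32), with edgeR adjusted p of 0.0676, 0.0519 and 0.0651.

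Among the structural genes of meiosis, of the 7 axis and cohesin genes, 3 rose: Sycp2, Smc1b and Hormad1. Without Sycp2, whose call follows in part from the filter, they were 2 of 6. Sycp2, an axis protein, had 0.121 CPM in ESC, 0 counts in T09-treated ESC, 2.17 CPM in EPSC and 2.96 CPM in T09-treated EPSC. In the treated pair 120 counts stood against 0, at least 35.4-fold higher in EPSC. Smc1b, the meiotic cohesin subunit, was at 8.71 CPM in ESC, 2.57 CPM in T09-treated ESC, 15.5 CPM in EPSC and 9.63 CPM in T09-treated EPSC, with an edgeR log2 difference of 1.32 and adjusted p of 0.00493. Hormad1, which marks unsynapsed axes, was at 21.9, 13.5, 26.9 and 30.4 CPM in the same order (0.72 ± 0.198, edgeR adjusted p = 0.0233). Without T09-treated ESC, Smc1b had a log2 difference of 0.52 and Hormad1 one of 0.38, and neither passed (edgeR adjusted p of 0.232 and 0.208). Smc1b also missed it without EPSC (0.77, edgeR adjusted p = 0.311) and without T09-treated EPSC (1.45, 0.0557), and Hormad1 without T09-treated EPSC (0.59, 0.129). The axis genes Sycp3 and Hormad2 had log2 differences of 0.45 and 0.47, and the cohesin genes Rec8 and Stag3 of -0.38 and -0.06, none past the threshold. Sycp3 exons overlap those of Chpt1 on the opposite strand, and the strand setting of the counting is not stated.

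In the synaptonemal complex core only Sycp1, the transverse filament, passed among 4 genes tested. It was at 0.874 and 0.753 CPM in ESC and 4.14 and 3.66 CPM in EPSC (2.24 ± 0.330, edgeR adjusted p = 0.000966). Its partners in the central element, Syce1, Syce2 and Tex12, had log2 differences of 0.65, -0.22 and 0.82. Syce1 fell just short, with an edgeR adjusted p of 0.0594.

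Of 5 recombination genes tested, 2 rose and 1 fell. Dmc1, the meiotic strand exchange recombinase, was at 1.84 and 2.73 CPM in ESC and 6.78 and 7.07 CPM in EPSC (1.60 ± 0.257, edgeR adjusted p = 0.00159). Tex11, an X-linked crossover factor, had a log2 difference of 1.01 ± 0.211 (edgeR adjusted p = 0.0062), which was 0.85 with an edgeR adjusted p of 0.0727 when T09-treated EPSC was left out. Tex15, needed for strand break repair and transposon silencing in the testis, moved the other way, from 19.4 and 23.7 CPM in ESC to 7.99 and 7.98 CPM in EPSC. That fall of -1.44 ± 0.170 had an edgeR adjusted p of 0.000269. Msh4 and Msh5, which stabilise crossover intermediates, had log2 differences of 0.45 and 0.29 and did not pass. Spo11, which makes the meiotic double strand breaks, had 0.0603 CPM in ESC, 0 counts in T09-treated ESC, and 0.105 and 0.0247 CPM in EPSC. These levels lie at or close to the level that a count of 0 allows.

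Among the other spermatogenic genes, 3 of 5 rose. Slc25a31, the germ cell ADP/ATP carrier, was at 0.934 and 0.195 CPM in ESC and 6.15 and 5.86 CPM in EPSC (3.54 ± 0.459, edgeR adjusted p = 0.000465). Dpep3, a dipeptidase gene of the testis, went from 0.332 and 0.67 CPM to 2.25 and 2.00 CPM (2.10 ± 0.467, edgeR adjusted p = 0.00871). Tex14, whose protein keeps the bridges between germ cells open, had the smallest rise, 0.44 ± 0.132 with an edgeR adjusted p of 0.0317. It was 0.32 both without T09-treated ESC and without EPSC (edgeR adjusted p of 0.269 and 0.226). Tex101, which encodes a germ cell surface protein, had 1.15 and did not pass (edgeR adjusted p = 0.233). Rpl10l fell, from 215 and 203 CPM in ESC to 97.0 and 97.3 CPM in EPSC, by 1.11 on the log2 scale. Each fit with 1 of the 4 libraries left out used state alone and so left 1 library in a state. It also pooled the treated and untreated libraries of the other state. The 21 members that rose kept their sign in these fits. Sycp2 is no support here, because it passed the filter on low counts through the EPSC libraries only. Hormad1, Smc1b, Tex11, Tdrkh, Tdrd1 and Tex14 missed the threshold without at least 1 library.

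Read as single pairs, the untreated libraries had 17 of 39 members at least 2-fold higher and 2 at least 2-fold lower in EPSC, with a counting interval that excluded 1 and 20 counts in 1 library. Over all genes the shares were 9.58% and 8.05%. The T09-treated libraries had 24 of 39 members higher and 2 lower, against 8.35% and 9.79% of all genes. Scml2 was 22.4-fold higher in the untreated and 21.3-fold higher in the treated pair, and Stra8 15.5-fold and 12.1-fold. Of these members, 3 of the 17 and 6 of the 24 higher ones reached 20 counts in the EPSC library only. These pairs have no test.

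**Figure D3:**
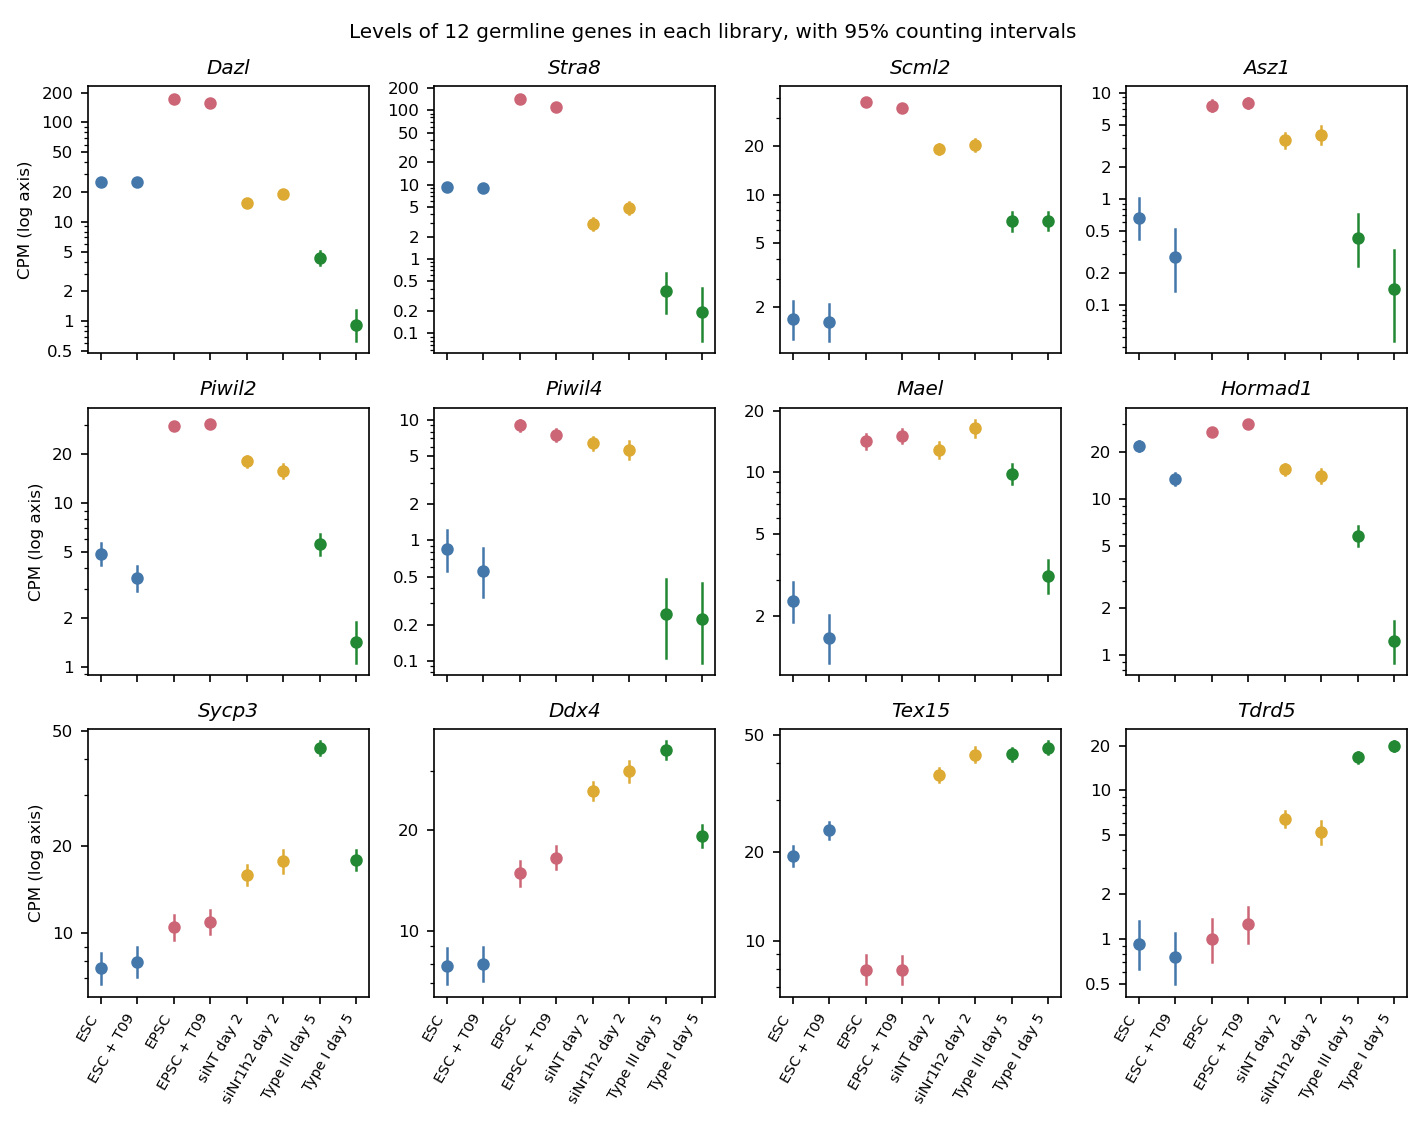
Levels of 12 members in CPM on a log axis in the 8 libraries, 1 point per library, with bars for the 95% exact Poisson interval of counting error. Stra8 falls from 141 CPM in EPSC to 0.195 CPM in Type I blastoids, and Tdrd5 rises from 0.995 to 19.8 CPM over the same libraries.

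The sequence just before the start sites was read from RefSeq (GRCm38.p6) for the 35 members with an entry. Spo11, Tdrd6, Tex11, Rnf17, Tex15 and Piwil2 had none in the table used. Each window covers 250 bases upstream of the most upstream start that this RefSeq table lists for the gene. That start can differ from the GENCODE one: 7 of the 35 windows (Stra8, Stag3, Msh4, Tex101, Piwil1, Scml2 and Tdrd5) lie wholly inside the GENCODE gene. They lie from 19 bases (Stag3) to 33472 (Piwil1) and 45307 bases (Scml2) past its start. The E-box CACGTG, which MGA and MAX are known to bind and which reads the same on both strands, was present in 14 of 35 windows (40.0%) and in 6.04% of the windows of 27025 genes. The E2F-type letters TCCCGC, searched on both strands, were present in 13 of 35 windows (37.1%) against 16.9% of all genes. Neither motif contains the other, 22 windows had at least 1 of them, and 5 had both. The median number of CpG dinucleotides was 14 in members and 6 over all genes. Each motif contains a CpG, and the shares over all genes were not matched for CpG number. They are therefore not a like baseline for the members. Both members that rose and members that did not carried these letters. The E-box was in 8 of 19 (42.1%) and 6 of 16 (37.5%), and the E2F-type letters in 6 of 19 (31.6%) and 7 of 16 (43.8%). A match describes letters, not binding.

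Of the members that rose and have an entry, the 4 with the smallest adjusted p are Stra8, Scml2, Dazl and Piwil4, since Piwil2, which ranked before Piwil4, has no entry. Sequences are shown for 3 of these and for Rpl10l, which fell. Stra8 is left out because its window lies inside a Stra8 exon of the GENCODE annotation. For the same reason the windows of Dazl and Piwil4, and below of Mael and Sycp3, stop where a GENCODE exon begins. Capitals mark the 2 motifs. Scml2, Dazl and Piwil4 held neither, and Rpl10l held 1 E2F-type match. The Scml2 window lies 45307 bases inside the GENCODE gene, so the sequence before the GENCODE start of Scml2 was not read.
Scml2 chrX:161162500-161162749 (plus strand): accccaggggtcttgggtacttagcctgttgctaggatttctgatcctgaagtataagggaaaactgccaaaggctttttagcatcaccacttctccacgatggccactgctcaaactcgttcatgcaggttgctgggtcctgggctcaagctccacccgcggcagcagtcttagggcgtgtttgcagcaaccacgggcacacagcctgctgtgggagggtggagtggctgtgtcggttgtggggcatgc
Dazl chr17:50293637-50293870 (minus strand): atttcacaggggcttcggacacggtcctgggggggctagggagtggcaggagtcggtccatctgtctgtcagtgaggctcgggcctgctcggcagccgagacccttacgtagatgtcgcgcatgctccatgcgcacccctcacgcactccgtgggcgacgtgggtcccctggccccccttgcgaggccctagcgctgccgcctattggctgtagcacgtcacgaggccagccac
Piwil4 chr9:14740734-14740922 (minus strand): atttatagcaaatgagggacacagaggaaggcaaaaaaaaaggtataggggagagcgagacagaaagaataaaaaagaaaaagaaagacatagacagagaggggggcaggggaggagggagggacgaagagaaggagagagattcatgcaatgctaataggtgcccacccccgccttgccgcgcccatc
Rpl10l chr12:66284402-66284651 (minus strand): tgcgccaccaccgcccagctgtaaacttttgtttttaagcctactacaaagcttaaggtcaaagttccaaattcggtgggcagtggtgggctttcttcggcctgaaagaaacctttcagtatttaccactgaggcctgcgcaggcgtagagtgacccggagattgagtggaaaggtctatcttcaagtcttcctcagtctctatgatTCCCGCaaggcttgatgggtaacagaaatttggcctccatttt

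Mael, Hormad1 and Sycp3 were added after their values were seen, to show windows that carry both motifs. Mael held 1 E-box, and Hormad1 and Sycp3 held 2 each, while all 3 had 1 E2F-type match. Mael and Hormad1 rose in EPSC, and Sycp3 did not pass.
Mael chr1:166238748-166238994 (minus strand): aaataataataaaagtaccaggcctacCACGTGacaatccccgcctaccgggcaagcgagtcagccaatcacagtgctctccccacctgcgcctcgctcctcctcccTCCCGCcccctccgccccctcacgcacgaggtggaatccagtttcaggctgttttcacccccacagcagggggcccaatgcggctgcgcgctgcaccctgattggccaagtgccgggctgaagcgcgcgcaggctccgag
Hormad1 chr3:95559427-95559676 (plus strand): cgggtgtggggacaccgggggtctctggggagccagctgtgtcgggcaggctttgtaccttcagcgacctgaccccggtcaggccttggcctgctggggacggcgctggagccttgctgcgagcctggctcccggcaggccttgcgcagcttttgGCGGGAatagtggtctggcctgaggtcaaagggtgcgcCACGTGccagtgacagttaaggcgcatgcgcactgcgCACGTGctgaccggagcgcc
Sycp3 chr10:88459337-88459568 (plus strand): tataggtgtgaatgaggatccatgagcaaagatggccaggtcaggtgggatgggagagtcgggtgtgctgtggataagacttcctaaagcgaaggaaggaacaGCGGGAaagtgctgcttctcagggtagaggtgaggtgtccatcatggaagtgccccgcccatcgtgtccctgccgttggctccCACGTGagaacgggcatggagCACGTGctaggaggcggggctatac

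Other genes of the same pathways, listed by function, gave the setting for these differences. Their counts are to be read against the 14.3% of all genes that were higher and the 14.5% that were lower. Of 19 further meiosis genes tested, 6 rose and 1 fell in EPSC in the edgeR fit. The telomere attachment genes Terb1 and Terb2 had log2 differences of 3.23 and 2.02, and Hfm1 and Syce3, of crossover formation and the central element, 2.63 and 1.88. All 4 are low, at most 7.62 CPM (Terb2 in EPSC). Of 11 further piRNA and germ granule genes, 4 rose and 2 fell, with Gtsf1, a PIWI cofactor, at 1.84, Tex19.2 at 1.31, Ddx25 at 0.67 and Tdrd12 at -1.98. Of 12 regulators of primordial germ cells, 6 rose and 2 fell. Prdm1, the germ cell specifier also called BLIMP1, had 1.07, Dnd1 1.02, Lin28a 0.73 and the receptor gene Kit -0.85. Of 10 oocyte and spermatogonial genes, Sohlh2 rose (1.90), and Zbtb16 (-2.07) and Zp3 (-1.79) fell, counts near the background.

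Of 26 genes listed for the control of germline gene repression, 6 rose and 4 fell, the latter near the background share. The 6 include the demethylase gene Tet1 (log2 0.37) and the 4 include the demethylase gene Tet2. Both act against DNA methylation, so these counts are not counts of repressors alone. The DNA methyltransferase gene Dnmt3a had a log2 difference of 1.14, Ring1, a Polycomb subunit, 0.94, Ehmt1, a histone methyltransferase, 0.40 and the demethylase gene Tet2 -1.05. Among subunits of the MGA, MAX and E2F6 complex, named here after their values were seen, Ring1 and Rnf2 (0.31) rose and Tfdp1 (-0.32) fell, with edgeR adjusted p of 0.00412, 0.046 and 0.0477. E2f6, Mga, Max, L3mbtl2 and Pcgf6 had 0.31, -0.32, 0.15, -0.19 and 0.09 and did not pass. Of the same list, Yaf2, Rybp, Cbx3 and Hdac2 had -0.46, -0.21, -0.19 and 0.19 and did not pass either. The remaining genes of the list that passed were Setdb1 (-0.38) and Uhrf1 (-0.35), which fell, and Dnmt3l (0.35), which rose. Of 14 genes of retinoic acid signalling, 6 rose and 6 fell. Among them were the retinoic acid synthesis gene Aldh1a3 (-4.17) and the retinoic acid hydroxylase genes Cyp26b1 (-2.54) and Cyp26a1 (2.28). Aldh1a3 and Cyp26b1 were under 1 CPM in all 4 cultures, and Cyp26a1 reached 1.18 CPM in EPSC.

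Markers of other cells were read beside these differences. The summed level of 10 late germ cell markers, Prm1, Prm2 and Tnp1 among them, lay between 0.195 and 2.12 CPM, with 5 to 9 of the 10 at 0 counts in each library. The 10 gonadal somatic markers summed to 9.34 CPM in ESC, 8.98 CPM in T09-treated ESC, 23.7 CPM in EPSC and 19.4 CPM in T09-treated EPSC. Cyp11a1 alone made up 15.9 CPM in EPSC and 3.10 CPM in ESC. The 8 pluripotency markers summed to 6160 and 6056 CPM in ESC and 4401 and 5058 CPM in EPSC. Of 7 primitive endoderm markers tested in the edgeR fit, 4 rose in EPSC and 0 fell, with a median log2 difference of 2.03. Their sums were 138 and 156 CPM in ESC and 198 and 155 CPM in EPSC. Of 6 trophectoderm markers, 1 rose and 5 fell (median -1.80), with sums of 61.8 and 71.9 CPM in ESC and 24.3 and 18.7 CPM in EPSC. Fewer cells of a type and less RNA per cell cannot be told apart in bulk libraries, and the part of these markers in the member differences was not tested.

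The second comparison asked whether the LXR agonist changed germline genes. In the same edgeR quasi-likelihood fit no member passed for T09 in either direction, of 39 tested. Among all genes 0.0898% were higher and 0.0138% lower. DESeq2 and limma-voom also gave 0 members. At an unadjusted p under 0.05 there were 4 members, all below 0, and 879 of 14477 genes. They were Smc1b (log2 -1.18), Tdrd9 (-1.23), Brdt (-1.14) and Tdrd1 (-1.74), with edgeR adjusted p of 0.286, 0.634, 0.747 and 0.782. The members' median was -0.14 on the log2 scale and that of all genes -0.00.

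Pair by pair, T09-treated EPSC had, of 39 members, 1 at least 2-fold above and 2 at least 2-fold below untreated EPSC, against 0.895% and 3.29% of all genes. Tex12 was higher, at 1.53 against 0.628 CPM, and Brdt (0.865 against 2.38 CPM) and Tdrd9 (1.01 against 2.38 CPM), a helicase gene of the piRNA pathway, were lower. The abundant members Stra8, Dazl, Piwil2 and Mael differed by less than 2-fold. In ESC, 0 of 37 members were higher and 6 lower by that rule, against 1.39% and 2.53% of all genes. They were Slc25a31 (log2 -1.97), Smc1b (-1.74), Msh4 (-1.66), Tex101 (-1.38), Tdrd9 (-1.16) and Asz1 (-1.10). Of these, Slc25a31, Msh4, Tex101 and Asz1 reached 20 counts in untreated ESC only, where they were higher (31 against 7, 57 against 18, 20 against 7 and 22 against 10 counts). Only Smc1b and Tdrd9 had 20 counts in both libraries. Smc1b had the most counts, and its interval ran from -2.12 to -1.42.

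Abundant members went both ways in T09-treated ESC by less than 2-fold. Tex15 (log2 0.29), Stag3 (0.18) and Rec8 (0.20) had intervals above 0, and Dazl (0.02) and Syce2 (-0.03) had intervals that span 0. Hormad1 had a log2 ratio of -0.70, Rnf17 -0.57, Syce1 -0.57 and Piwil2 -0.49. In EPSC the ratios of Hormad1 and Syce1 were 0.18 and 0.40. The difference between the states in T09 response was not tested, because the 4 libraries leave no residual for an interaction. Only Tdrd9 was lower by the 2-fold rule in both states.

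**Figure D4:**
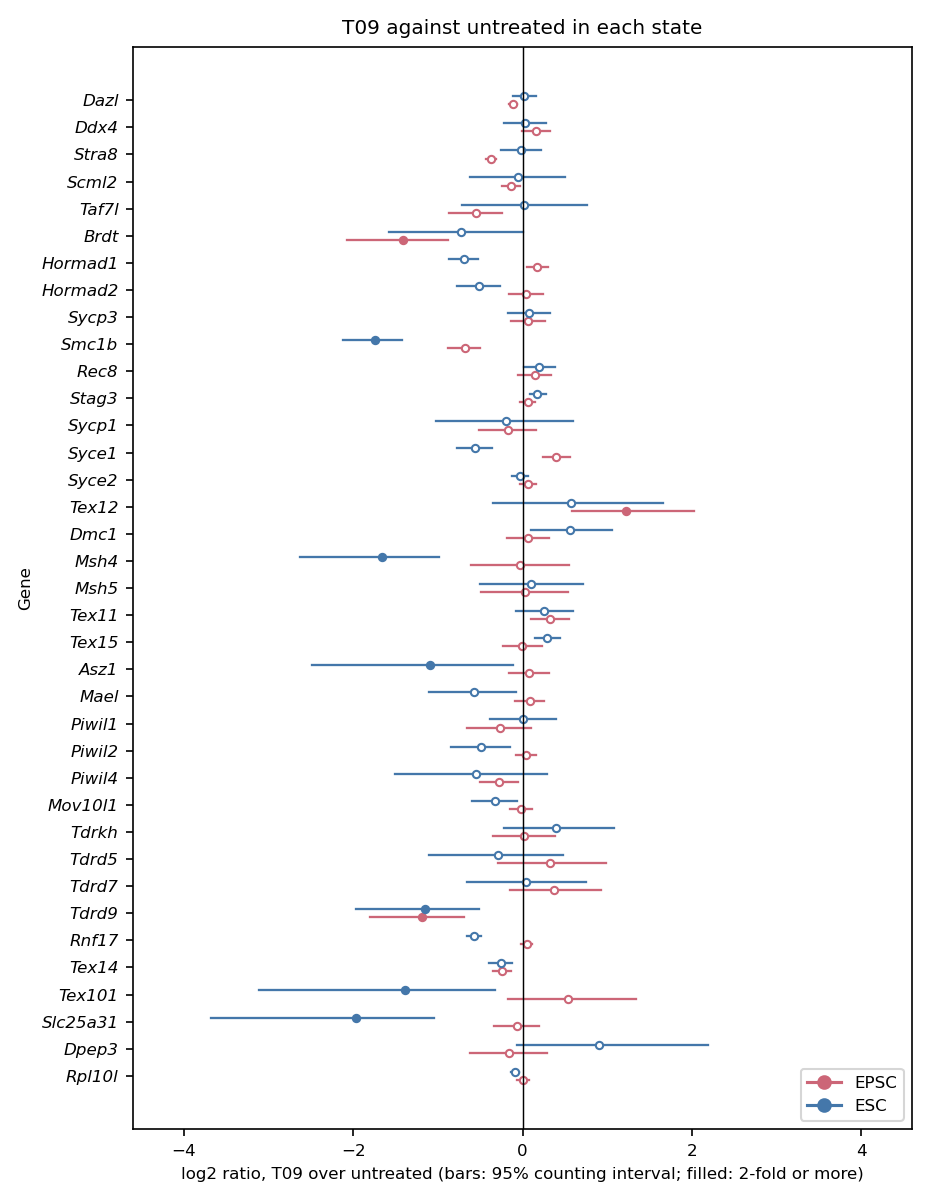
Log2 ratio of the T09-treated over the untreated library for each of 37 members (rows) in ESC (blue) and EPSC (red), with bars for the 95% exact conditional interval of counting error. Filled points are at least 2-fold apart with an interval that excludes 0. Tdrd9 is filled below 0 in both states, Smc1b in ESC only, and Tex12 is filled above 0 in EPSC only.

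The third comparison asked whether Nr1h2 knockdown altered these genes in day 2 blastoids. Nr1h2 itself was at 53.9 CPM with siNT and 37.7 CPM with siNr1h2, so most of its transcript was still present. By the 2-fold rule 0 of 41 members were higher and 3 lower with siNr1h2, against 1.49% and 2.17% of all genes. All 3 reached 20 counts in siNT only, the library where they were higher, so this count is no support for a difference: Tdrd6 at 0.584 against 0.191 CPM (23 and 5 counts), Tex12 at 1.09 against 0.42 CPM, and Dpep3 at 1.55 against 0.686 CPM. Stra8 was at 2.95 CPM with siNT and 4.84 CPM with siNr1h2, a log2 ratio of 0.71 (interval 0.34 to 1.09). Slc25a31 and Sycp1 had ratios of 0.78 and 0.63, all short of 2-fold. The members' median log2 ratio was 0.14, against -0.01 over all genes.

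The fourth comparison set siNT day 2 blastoids beside untreated EPSC, the cell state they were aggregated from. By the 2-fold rule 6 of 41 members were higher and 6 lower, close to the 14.5% and 11.3% of all genes, so the counts set the members apart in neither direction. The sizes of single members were large. Stra8 was 47.9-fold lower, at 2.95 against 141 CPM, and Dazl 11-fold lower, at 15.6 against 171 CPM. Rpl10l (log2 -1.90), Piwil1 (-1.78), Smc1b (-1.12) and Asz1 (-1.07) were also lower. Higher were the Tudor domain genes Tdrd5 (0.995 to 6.40 CPM), Tdrd1 (1.68 to 5.36 CPM) and Tdrkh (3.19 to 6.66 CPM). Tex15 was at 36.6 CPM against 7.99 CPM. Spo11 had 23 counts against 4, and Tdrd6 23 against 0, at least 7.44-fold higher. Spo11 and Tdrd6 reached 20 counts in no library other than siNT. Transfection, aggregation, medium and time differ together between these libraries and cannot be told apart. The pluripotency markers summed to 2313 CPM in siNT, the primitive endoderm markers to 1158 CPM and the trophectoderm markers to 201 CPM, against 4401, 198 and 24.3 CPM in EPSC.

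Between day 5 blastoids and the T09-treated EPSC they are labelled as derived from, Stra8, Dazl and several piRNA genes were lower. Tudor domain genes went both ways. In Type III blastoids 8 of 39 members were higher and 18 lower by the 2-fold rule, against 21.7% and 16.0% of all genes, so the higher share was near the background. In Type I blastoids 5 of 39 were higher and 26 lower, against 22.7% and 18.1%. These comparisons share the T09-treated EPSC library. Stra8 was at 109 CPM in T09-treated EPSC, 0.365 CPM in Type III and 0.195 CPM in Type I, that is 298-fold and 558-fold lower, with 7 counts left in Type I. Dazl was at 159, 4.38 and 0.919 CPM in the same order. Piwil4 was at 7.44, 0.243 and 0.223 CPM, and Asz1 at 7.95, 0.426 and 0.139 CPM. Tdrd9 had 41 counts in T09-treated EPSC and 0 in Type I, at least 12.1-fold lower. Of the lower members, 9 of the 18 in Type III and 9 of the 26 in Type I, Stra8, Asz1 and Piwil4 among them, reached 20 counts in T09-treated EPSC only. The pluripotency markers summed to 5058 CPM in T09-treated EPSC, 1068 CPM in Type III and 521 CPM in Type I. The primitive endoderm markers summed to 155, 3531 and 5222 CPM, and the trophectoderm markers to 18.7, 1476 and 1342 CPM, in that order. Cell types, time and medium differ together here and cannot be told apart.

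A smaller set was higher in both day 5 libraries than in T09-treated EPSC: Tdrd5, Tdrd7, Tdrd1, Tdrkh and Tex15. These are all 5 of the 39 members higher in Type I, a share below the 22.7% of all genes. The share of all genes higher in both libraries was not counted, so the overlap is no result about the members. Tdrd5 was at 1.26 CPM in T09-treated EPSC, 16.7 CPM in Type III and 19.8 CPM in Type I. Tdrd7, which also acts in lens and other somatic cells, was at 1.78, 8.97 and 14.3 CPM, and Tex15 at 7.98, 42.9 and 45.2 CPM. In Type III alone the 2-fold rule added Sycp3 (11.0 to 43.7 CPM), Brdt (0.865 to 1.95 CPM) and Ddx4 (16.6 to 34.6 CPM). Chpt1, whose exons overlap those of Sycp3, was at 19.5 CPM in T09-treated EPSC and 12.0 CPM in Type III. The exons of Tdrkh overlap those of Oaz3 on the opposite strand, which had at most 2 counts.

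The last comparison asked how the hand-picked day 5 classes differ. In Type I blastoids 0 members were higher and 12 lower than in Type III by the 2-fold rule, among 30 with at least 20 counts in 1 of them. Over all genes 1.93% were higher and 5.75% lower. The members' median log2 ratio was -0.81, against 0.01 over all genes, and 6 of the 30 ratios lay above 0. Dazl was at 4.38 CPM in Type III and 0.919 CPM in Type I, 4.76-fold lower. Hormad1 was at 5.78 and 1.23 CPM, 4.71-fold lower, and Piwil2 at 5.63 and 1.42 CPM, 3.96-fold lower. These 3 had the largest differences.

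The 12 came from every role except germline chromatin and transcription, where 0 of 3 genes were lower. Of the 7 axis and cohesin genes 4 were lower: Hormad1, Hormad2 (5.99 to 2.42 CPM), Sycp3 (43.7 to 17.9 CPM) and Smc1b (6.72 to 2.67 CPM). From the synaptonemal complex core there was Sycp1 (log2 -1.27), and from recombination Dmc1 (-1.24) and Tex11 (-1.11). Mael (9.86 to 3.12 CPM) joined Piwil2 from the piRNA pathway, and Tex14 (-1.12) and Rpl10l (-1.32) completed the set. Tdrd5, Tdrd7 and Tex15, at 19.8, 14.3 and 45.2 CPM in Type I, were not lower there than in Type III.

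**Figure D5:**
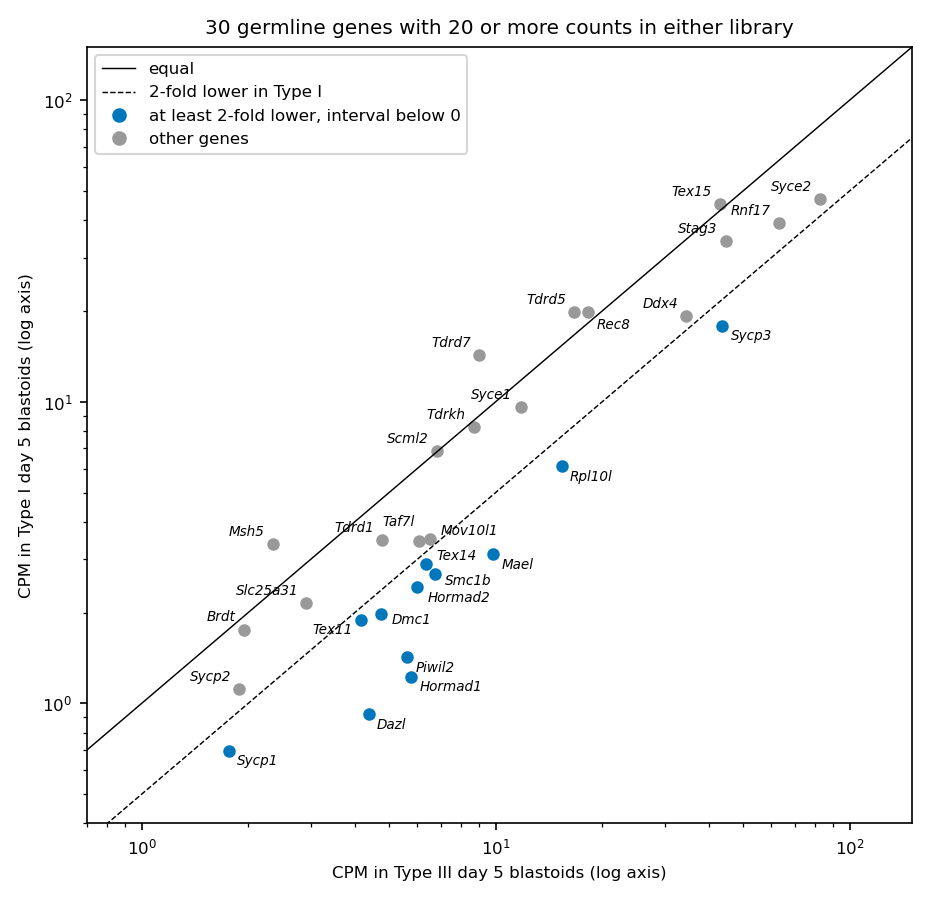
Level in CPM of the 30 members with at least 20 counts in 1 library, in Type III (horizontal) and Type I (vertical) day 5 blastoids, both on log axes, 1 point per gene. The solid line marks equal levels and the dashed line a 2-fold lower level in Type I. The 12 blue genes lie below the dashed line, Hormad1 and Dazl (both -2.18 as a log2 ratio) farthest from it.

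Cell type markers also differed between the classes. The pluripotency markers summed to 1068 CPM in Type III and 521 CPM in Type I, and the primitive endoderm markers to 3531 and 5222 CPM. The trophectoderm markers summed to 1476 and 1342 CPM, and the late germ cell markers stayed near 0. The part of these markers in the lower germline levels of Type I was not tested. With 1 library a class, the difference describes these libraries and has no replicate check.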

How the data were processed

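The authors deposited 1 table of raw counts per gene symbol for 8 libraries. The submitters' processing notes name STAR, HTSeq, Cuffnorm and the build mm9; versions, annotation and strand setting are not given in the sources used here. Per the labels, total RNA was made into libraries with a directional kit. Counts were scaled with TMM (edgeR 4.0.16, R 4.3.3).

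For 2 libraries, log2 ratios used a prior count of 2 and 95% exact conditional (Clopper-Pearson) intervals. Intervals and the floor of 3 counts cover counting error only, because PCR copies of a molecule cannot be recognised here. ESC and EPSC with and without T09 entered an edgeR quasi-likelihood fit after filterByExpr. The fit and the 2-library rule were tested on simulated data. DESeq2 1.42.0, limma 3.58.1, other scalings, filters, count minimums and folds were alternatives.

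Members, lists, comparisons and named-gene rules (members that passed a fit or the 2-fold rule; at most 4 passing genes per related list) were chosen with earlier results of these data known. Exon lengths come from GENCODE M21 and promoters from RefSeq, both GRCm38; no coordinates were converted. The related symbols Ankrd31 and Gm4969 did not match the table.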

Additional observations from a re-analysis of the deposited data

How the results depend on the processing

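No paired analysis was possible because the labels give no replicate numbers and each group has 1 library. In the state fit 16 to 22 members were higher and 2 lower under every alternative run, against 21 and 2 as reported. DESeq2 gave 19 (without Tdrkh and Tex14), state alone 18 (without Smc1b, Tdrd1 and Tex14) and no filter 22 (with Syce1). Leaving out 1 library used state alone, assumed that the lone library varies like the others, and gave 22 without ESC, 17 without T09-treated ESC, 18 without EPSC and 16 without T09-treated EPSC. No called member changed sign under the alternatives run. For T09 over all genes, 13 were higher and 2 lower as reported; no filter gave 23 and 23, and DESeq2 gave 16 lower.

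With a 4-fold threshold, members lower in EPSC than ESC went from 2 to 0 in both pairs, and members higher in the treated pair from 24 to 12. T09 in EPSC then had 0 higher and 0 lower, T09 in ESC 0 lower, siNr1h2 0 lower, siNT over EPSC 2 lower and Type I over Type III 2 lower. Over T09-treated EPSC, Type I had 3 higher and Type III 4 higher. A count minimum of 100 left T09 in EPSC with 0 higher and 0 lower, T09 in ESC with 1 lower and siNr1h2 with 0 lower. These settings ask for larger folds or more counts by construction. Other scalings moved the median of all genes by at most 0.0906 on the log2 scale. Depth limits Spo11 and Tdrd6, which reached 20 counts in siNT only, and members under 20 counts in both libraries of a pair.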
